A study of Homo sapiens with 9 samples.

Results

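The clustered histone genes are the replication-dependent genes for the histones H1, H2A, H2B, H3 and H4, which lie together in a large cluster on chromosome 6 (HIST1) and 2 smaller ones on chromosome 1 (HIST2 and HIST3). They were taken as every symbol of the deposited table that starts with HIST1H, HIST2H or HIST3H, which gave 72 of 26475 symbols. By type, 6 were H1, 18 H2A, 20 H2B, 14 H3 and 14 H4 genes. By cluster, 56 belonged to HIST1, 13 to HIST2 and 3 to HIST3. The cells were A375, an established human melanoma line with an activating BRAF mutation, and they were treated with TP-472, a small molecule that binds the acetyl-lysine reading bromodomains of BRD9 and BRD7. Cultures were kept for 24 h in the vehicle DMSO, in 5 µM TP-472 or in 10 µM TP-472, with 3 libraries per group, and all groups share the same line, medium and time point. A single cell line and a single time point limit what these groups can stand for. For these genes the comparisons ask which histone transcripts differed from DMSO at each dose and which differed between the doses.

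Core histones H2A, H2B, H3 and H4 form the octamer around which DNA is wrapped, and the linker histone H1 binds where DNA enters and leaves it. Cells make these proteins mainly in S phase, from many intronless gene copies. The usual transcript of such a gene has no poly(A) tail and ends shortly after a conserved stem-loop, which is bound by the stem-loop binding protein SLBP. Some of the genes also give longer, polyadenylated transcripts, which are known from differentiating and non-dividing cells.

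The libraries held 42483091 to 51298130 expected counts each. In DMSO the member symbols made up 0.00980% to 0.0103% of a library, against 0.0252% to 0.0270% with 5 µM and 0.0352% to 0.0542% with 10 µM TP-472. The share of a ribosomal RNA set of 24 symbols was 8.80% to 10.9%, 10.6% to 16.7% and 8.22% to 19.9% in the same order. This set was taken by name patterns that also admit symbols starting with RN7S, which are not ribosomal. For library preparation, the sample labels and methods name oligo-dT beads, and the series design names removal of ribosomal RNA. Oligo-dT selection retains polyadenylated histone transcripts only, so which of the transcript forms were counted could not be settled. The 10 µM replicate 1 library stood apart from its group. Its chi-square per gene was 198 and 318 against replicates 2 and 3, compared with 46.7 between those. At 5 µM, replicate 1 also differed most, at 58.1 and 38.6 against replicates 2 and 3, compared with 9.74 between those. Of the melanocyte lineage markers, the transcription factor SOX10 was at 417 ± 10.96 CPM (SD, n = 3) and MITF at 31.9 ± 1.79 CPM in DMSO, while TYR was listed at 0 in all libraries. The summed level of 8 melanocyte markers was 448 to 468, 448 to 462 and 399.6 to 448 CPM in DMSO, 5 µM and 10 µM, and that of 6 markers of leukocytes, epithelium and endothelium 8.61 to 11.2, 8.50 to 9.89 and 8.23 to 13.4 CPM. SOX10 makes up most of the melanocyte sum. Of the 6 melanocyte markers tested with edgeR, only S100A1 passed at 10 µM, with a log2 fold change against DMSO of -1.56 ± 0.40 (standard error, SE, adjusted p = 0.0129), and 0 passed at 5 µM. In RNA from whole cultures, more cells with a transcript and more transcript per cell cannot be told apart. CPM here are counts scaled by the TMM-adjusted library size and not by gene length, so they compare libraries and not genes.

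The promoters of genes on which the results turn are shown because their short conserved elements tell the histone types apart. RefSeq promoters on GRCh38.p14 matched 64 of the 72 symbols. The letters searched, on both strands of the 250 bases before the start, were CCAAT, the TATA box TATAAA, the octamer ATTTGCAT known from H2B genes, AAACACA of H1 genes and GGTCCG of the H4 element. In the lines that follow, each sequence is the 130 bases up to the start site on the gene's own strand, and capitals mark these letters or their reverse complement.
HIST1H1C: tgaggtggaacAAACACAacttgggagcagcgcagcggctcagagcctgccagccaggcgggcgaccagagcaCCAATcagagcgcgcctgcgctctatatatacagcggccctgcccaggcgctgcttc
HIST2H2AA3: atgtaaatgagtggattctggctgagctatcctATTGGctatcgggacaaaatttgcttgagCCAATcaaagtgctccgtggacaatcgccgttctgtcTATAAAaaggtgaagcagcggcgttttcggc
HIST1H2BK: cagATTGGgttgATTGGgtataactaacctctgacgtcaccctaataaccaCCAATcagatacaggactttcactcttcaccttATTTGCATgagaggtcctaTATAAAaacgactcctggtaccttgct
HIST2H2BE: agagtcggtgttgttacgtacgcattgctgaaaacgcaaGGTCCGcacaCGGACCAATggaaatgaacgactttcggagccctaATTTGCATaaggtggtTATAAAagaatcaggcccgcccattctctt
HIST1H2BG: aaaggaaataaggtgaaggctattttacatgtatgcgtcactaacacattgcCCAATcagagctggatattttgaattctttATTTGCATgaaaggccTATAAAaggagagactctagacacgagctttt
HIST1H2BH: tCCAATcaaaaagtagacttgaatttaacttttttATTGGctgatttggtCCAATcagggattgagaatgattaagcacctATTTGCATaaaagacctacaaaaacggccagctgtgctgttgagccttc
HIST1H4H: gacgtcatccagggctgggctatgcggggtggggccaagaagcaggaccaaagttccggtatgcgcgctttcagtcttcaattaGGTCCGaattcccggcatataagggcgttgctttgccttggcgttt
They lie at chr6:26056471-26056600 (minus), chr1:149842751-149842880 (minus), chr6:27146859-27146988 (minus), chr1:149886683-149886812 (minus), chr6:26216689-26216818 (minus), chr6:26251484-26251613 (plus) and chr6:26285535-26285664 (minus). HIST1H2BH is included as an H2B gene that has the octamer and was not called at either dose. In HIST2H2BE the reverse complement of GGTCCG overlaps a CCAAT. The letters CCAAT stood in 55 of the 64 promoters (32.0% of all 35116 RefSeq promoters) and TATAAA in 42 (10.7%). The octamer stood in 26 (1.63% of all promoters), among them 14 of 18 H2B and 11 of 16 H2A promoters. Where neighbouring genes face away from each other, their windows can overlap and 1 match then counts for both. HIST1H2AE and HIST1H2BG share their octamer in this way, and HIST1H2AD and HIST1H3D have the same start and window. All counts of matches here are therefore of promoters and not of separate sites. AAACACA stood in 6 of 6 H1 promoters and in no other member promoter (4.82% of all promoters). GGTCCG stood in 11 of 12 H4 promoters and in 3 of the others (9.43% of all promoters). Among H2B genes, the octamer stood in 6 of 7 promoters of genes called up at 10 µM and in 8 of the 11 others. Among H2A genes it stood in 2 of 6 and in 9 of the 10 others, and over all members in 9 of 24 and 17 of 40. The others include members that did not pass the filter on low counts and so were not tested. HIST2H2AA3 and HIST2H2AA4, which hold identical counts, are both among the 6. A match is a run of letters in this window and no measure of binding.

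Clustered histone transcripts were higher after TP-472 treatment at both doses. Summed over the 72 symbols, the level was 104, 96.8 and 102 CPM in the DMSO libraries, 263, 263 and 253 CPM at 5 µM and 534, 380 and 367 CPM at 10 µM. The 3 groups did not overlap, and their means of 101 ± 3.81, 260 ± 5.40 and 427 ± 92.6 CPM (SD, n = 3) gave ratios to DMSO of 2.57 and 4.23. The highest 10 µM sum belonged to the library that stands apart, and without it the 10 µM mean was 372 CPM, with size factors computed again from the other 8 libraries. Counts were unevenly spread, and 6 symbols, HIST1H1C, HIST1H2BK, HIST2H2AA3, HIST2H2AA4, HIST1H2BD and HIST2H2BE, made up 79.5% of the rise in CPM at 5 µM and 79.6% at 10 µM.

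Of the 72 symbols, 43 passed the filter on low counts and entered the edgeR quasi-likelihood test, in which a call is an adjusted p under 0.05 over 16417 genes. At 5 µM, 17 of the 43 were called up and 0 down, where 4.4% of all tested genes were called up and 5.81% down. At 10 µM, 25 were called up and 0 down, against a background of 16.4% up and 18% down. A fold limit of 1.5 on top of the adjusted p kept 17 and 25 up and 0 down, while the share of all tested genes came to 2.14% up and 2.72% down at 5 µM and to 8.57% up and 10.5% down at 10 µM. Each of the 17 was also up at 10 µM (4.04% of all genes were up at both). The median log2 fold change of the 43 was 1.23 at 5 µM and 1.65 at 10 µM, and that of all tested genes was 0.0054 and 0.011. Since a gene with few DMSO counts can enter the test only through its treated libraries, the 26 symbols that pass on their DMSO counts alone were counted separately. Of these 26, 16 were up at 5 µM and 20 at 10 µM, against 4.53% and 16.7% of all 15086 genes that pass so, and their median log2 fold changes were 1.19 and 1.76 against -0.01 and -0.01. All 3 treated libraries were above all 3 DMSO libraries in 30 of the 43 at 5 µM (23.7% of all genes) and in 27 at 10 µM (23.4%). Of the 12 symbols whose DMSO mean reached 1 CPM, 12 were up at 10 µM and 11 at 5 µM, the other being HIST3H2A. Since 3 pairs of symbols carry identical values, the calls counted with each pair once were 14 of 40 at 5 µM and 22 of 40 at 10 µM. Without the 10 µM library that stands apart, the counts were 21 up and 26 up, each with 1 symbol down, HIST1H4J, whose counts are described with the H4 genes, and all 25 calls at 10 µM remained. The 5 µM count was 11 without DMSO replicate 2, and 11 without 5 µM replicate 2. It was also 11 with limma-voom. The share of all genes called by these altered fits is not given beside the counts.

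**Figure D1:**
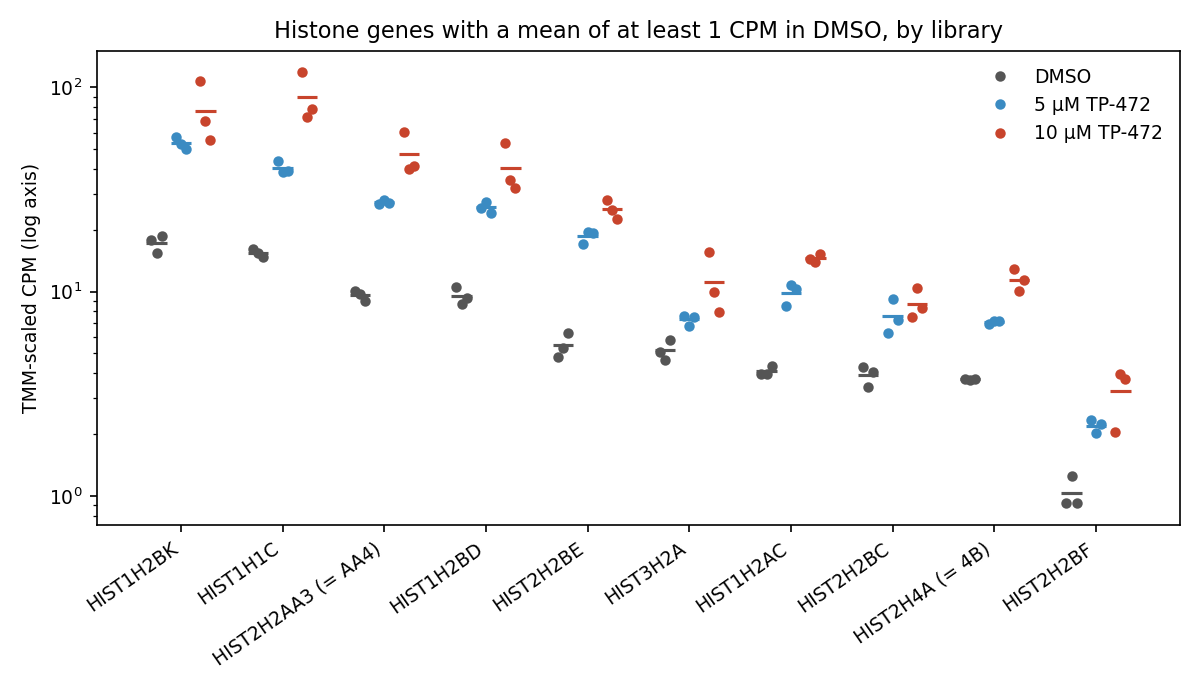
Levels of the histone genes whose DMSO mean reached 1 CPM, 1 point per library and a bar at each group mean, as TMM-scaled CPM on a log axis, with identical pairs drawn once. The 3 TP-472 libraries of each dose lie above the 3 DMSO libraries for each gene shown.

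**Figure D2:**
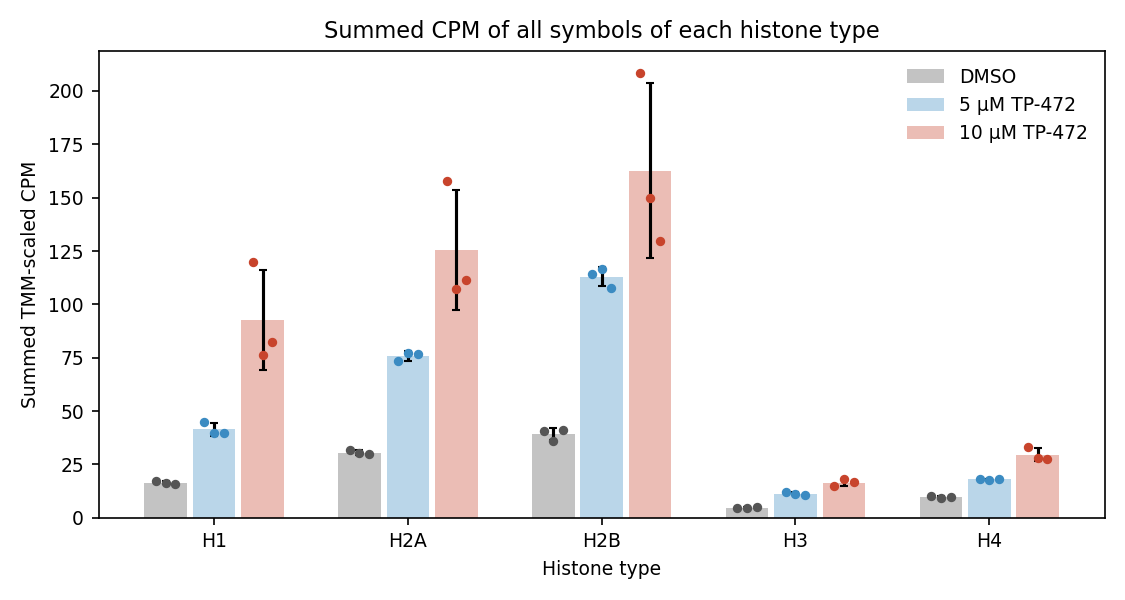
Summed TMM-scaled CPM of all symbols of each histone type, with bars for the group mean, error bars for the SD and points for the 3 libraries. Each type is ordered DMSO, 5 µM, 10 µM without overlap, for instance H1 with means of 16.4, 41.6 and 92.8 CPM.

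Among the H1 genes, HIST1H1C, which codes for the linker histone H1.2 (chr6:26055740-26056470, minus strand, GRCh38.p14), carried most of the counts. The DMSO libraries held 16.1, 15.5 and 14.7 CPM of HIST1H1C, the 5 µM libraries 43.7, 38.4 and 38.8 and the 10 µM libraries 119, 72.00 and 78.6. The 3 groups did not overlap, and the log2 fold change was 1.39 ± 0.17 (adjusted p = 0.000934) at 5 µM and 2.54 ± 0.17 (adjusted p = 5.41e-06) at 10 µM. HIST1H1E had 0.241, 0.144 and 0.284 CPM with DMSO, 0.482, 0.794 and 0.185 with 5 µM and 0.434, 1.71 and 1.59 with 10 µM TP-472. For HIST1H1D the values were 0.785, 0.494 and 0.686 CPM with the vehicle, 0.854, 0.445 and 0.780 with 5 µM and 0.744, 2.35 and 2.14 with 10 µM TP-472. HIST1H1E codes for H1.4 and HIST1H1D for H1.3, and the 10 µM replicate 1 library was the lowest of its group for both. HIST1H1E was called at 10 µM only, at 2.47 ± 0.70 (adjusted p = 0.0214), and it does not pass the filter on DMSO counts alone. HIST1H1D was called there at 1.41 ± 0.48 (adjusted p = 0.0465), although its 10 µM replicate 1 lay within the DMSO range. Leaving out any DMSO library, 10 µM replicate 2 or 10 µM replicate 3 ended both calls at 10 µM, with adjusted p up to 0.0864 for HIST1H1E and up to 0.154 for HIST1H1D, which was also lost without any 5 µM library. HIST1H1A, HIST1H1B and the testis gene HIST1H1T did not pass the filter. In DMSO, H1 symbols held 15.5% to 16.8% of the member counts, and this share was 15.1% to 17.2% with 5 µM and 20.1% to 22.4% with 10 µM TP-472. Thus the share of H1 in the counted histone transcripts was higher in each 10 µM library than in any other.

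Of the 18 H2A symbols, 10 passed the filter. At 5 µM 3 were called up and at 10 µM 6, where 4.4% and 16.4% of all tested genes were up. HIST2H2AA3 (chr1:149842218-149842750, minus strand) and HIST2H2AA4 (chr1:149851061-149851594, plus strand) are copies in an inverted repeat and hold identical counts in all 9 libraries, so they are 1 measurement. HIST2H2AA3 was at 10.1, 9.73 and 9.01 CPM in DMSO, 26.97, 28.1 and 27.2 at 5 µM and 60.8, 39.6 and 41.3 at 10 µM. That was a log2 fold change of 1.51 ± 0.15 (adjusted p = 0.000345) at 5 µM and 2.30 ± 0.16 (adjusted p = 5.29e-06) at 10 µM, with no overlap between the 3 groups. The DMSO libraries held 3.96, 3.93 and 4.30 CPM of HIST1H2AC, the 5 µM libraries 8.54, 10.8 and 10.3 and the 10 µM libraries 14.5, 13.9 and 15.4. HIST1H2AC, a HIST1 gene of the same type, had a narrow spread in each group and moved by 1.28 ± 0.12 (adjusted p = 0.000244) at 5 µM and 1.84 ± 0.12 (adjusted p = 4.82e-06) at 10 µM. HIST3H2A had 5.05, 4.65 and 5.77 CPM with DMSO, 7.62, 6.80 and 7.51 with 5 µM and 15.7, 9.96 and 7.93 with 10 µM TP-472. For HIST3H2A, the H2A gene of the small HIST3 cluster, all 5 µM libraries were above DMSO and the change there, 0.50 ± 0.23 (adjusted p = 0.204), did not pass the test, while 10 µM gave 1.12 ± 0.23 (adjusted p = 0.00402). HIST1H2AE and HIST1H2AI were called at 10 µM only, at 2.01 ± 0.39 (adjusted p = 0.0032) and 2.19 ± 0.54 (adjusted p = 0.0107). HIST1H2AI missed the threshold without DMSO replicate 1, at an adjusted p of 0.0506, and 62.3% of its 50-base words also occur elsewhere, mostly in HIST1H2AJ. In addition, HIST1H2AI does not pass the filter on DMSO counts alone. For HIST2H2AC the values were 0.443, 0.370 and 0.378 CPM with the vehicle, 0.0657, 0.155 and 0.390 with 5 µM and 0.702, 0.115 and 0.632 with 10 µM TP-472. HIST2H2AC thus overlapped between all groups, and its log2 fold changes of -0.95 ± 0.80 (adjusted p = 0.54) and 0.28 ± 0.77 (adjusted p = 0.819) did not pass the test.

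Among the H2B genes, 6 of 12 tested symbols were up at 5 µM and 8 at 10 µM. Of all tested genes, 4.4% and 16.4% were up. HIST1H2BC and HIST1H2BJ among the 8 do not pass the filter on DMSO counts alone. HIST1H2BK was at 17.9, 15.5 and 18.7 CPM in DMSO, 57.3, 52.7 and 50.05 at 5 µM and 107, 68.1 and 55.5 at 10 µM. HIST1H2BK (chr6:27138293-27146858, minus strand) was thus well above DMSO in each treated library, while 10 µM replicate 3 lay among the 5 µM values. Its log2 fold change was 1.62 ± 0.21 (adjusted p = 0.00124) at 5 µM and 2.15 ± 0.21 (adjusted p = 5.71e-05) at 10 µM. Of the 50-base words of HIST1H2BK, 74.1% also occur elsewhere, mostly in H2BFS, so its value can depend on how shared reads were divided. The DMSO libraries held 10.5, 8.66 and 9.27 CPM of HIST1H2BD, the 5 µM libraries 25.8, 27.4 and 24.3 and the 10 µM libraries 53.5, 35.01 and 32.1. HIST1H2BD (chr6:26158121-26171349, plus strand) moved by 1.45 ± 0.18 (adjusted p = 0.00101) and 2.08 ± 0.18 (adjusted p = 2.53e-05). HIST2H2BE had 4.81, 5.31 and 6.29 CPM with DMSO, 17.2, 19.5 and 19.4 with 5 µM and 28.03, 25.1 and 22.7 with 10 µM TP-472. HIST2H2BE (chr1:149884459-149886682, minus strand) moved by 1.78 ± 0.13 (adjusted p = 4.2e-05) and 2.21 ± 0.13 (adjusted p = 1.94e-06), the smallest adjusted p of any member at both doses. For HIST1H2BG the values were 0.503, 0.329 and 0.260 CPM with the vehicle, 1.29, 1.70 and 1.38 with 5 µM and 5.39, 3.46 and 2.95 with 10 µM TP-472. This last gene, HIST1H2BG (chr6:26216200-26216688, minus strand), had the largest log2 fold change of any called member, 1.99 ± 0.35 (adjusted p = 0.00624) at 5 µM and 3.42 ± 0.36 (adjusted p = 7.64e-05) at 10 µM, from a low DMSO level. With limma-voom its change at 5 µM had an adjusted p of 0.0576. HIST2H2BF was at 0.926, 1.26 and 0.922 CPM in DMSO, 2.34, 2.03 and 2.24 at 5 µM and 2.05, 3.96 and 3.73 at 10 µM. HIST2H2BF passed at 1.09 ± 0.29 (adjusted p = 0.0434) and 1.65 ± 0.29 (adjusted p = 0.0021), and its 10 µM replicate 1 lay among the 5 µM values. Its call at 5 µM was lost without any of the 6 DMSO and 5 µM libraries, with adjusted p up to 0.166. HIST2H2BC, annotated as a transcribed pseudogene, was also counted. The DMSO libraries held 4.27, 3.42 and 4.02 CPM of HIST2H2BC, the 5 µM libraries 6.29, 9.22 and 7.29 and the 10 µM libraries 7.48, 10.4 and 8.29. It was called at 0.96 ± 0.19 (adjusted p = 0.0107) and 1.16 ± 0.19 (adjusted p = 0.00118), the former lost without DMSO replicate 2 or 5 µM replicate 2 at adjusted p up to 0.0624. HIST1H2BC and HIST1H2BJ were called at 10 µM only, at 2.21 ± 0.52 (adjusted p = 0.00901) and 2.81 ± 0.63 (adjusted p = 0.00664). The pseudogene HIST2H2BA and the HIST3 gene HIST3H2BB were not called at either dose, with log2 fold changes at 10 µM of 0.77 ± 0.41 (adjusted p = 0.173) and 1.05 ± 0.74 (adjusted p = 0.306).

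For the H3 genes, 4 of 10 tested symbols were up at 5 µM and 5 at 10 µM, against 4.4% and 16.4% of all tested genes. HIST1H3D had 0.684, 0.412 and 0.331 CPM with DMSO, 1.75, 1.74 and 1.70 with 5 µM and 3.39, 2.85 and 3.95 with 10 µM TP-472. HIST1H3D (chr6:26196784-26199293, minus strand) had no overlap between the 3 groups and moved by 1.85 ± 0.31 (adjusted p = 0.00474) and 2.82 ± 0.31 (adjusted p = 0.000115). All 50-base words of HIST1H3D also occur elsewhere, mostly in AL031777.3. HIST2H3A and HIST2H3C, which share all their 50-base words, hold identical counts, so their calls rest on the same values. For HIST2H3A the values were 0.825, 0.967 and 0.969 CPM with the vehicle, 1.99, 2.36 and 2.13 with 5 µM and 2.62, 4.48 and 3.97 with 10 µM TP-472. This pair moved by 1.23 ± 0.26 (adjusted p = 0.0141) and 2.00 ± 0.26 (adjusted p = 0.000295), again without overlap, and the call at 5 µM was lost without any DMSO library or 5 µM replicate 2, at adjusted p up to 0.0748. HIST1H3H was called at both doses, at 1.61 ± 0.42 (adjusted p = 0.0401) and 2.22 ± 0.43 (adjusted p = 0.00311), the former lost without any of the 6 libraries compared, at adjusted p up to 0.164. HIST1H3E was at 0.845, 0.658 and 0.780 CPM in DMSO, 1.01, 0.813 and 0.965 at 5 µM and 1.43, 2.11 and 1.53 at 10 µM. HIST1H3E was called at 10 µM only, at 1.15 ± 0.31 (adjusted p = 0.0175), and lost that call without DMSO replicate 2, DMSO replicate 3 or 10 µM replicate 2, at adjusted p up to 0.0759. The DMSO libraries held 0.282, 0.700 and 0.638 CPM of HIST2H3D, the 5 µM libraries 1.58, 1.36 and 0.903 and the 10 µM libraries 0.0826, 0.923 and 0.754. HIST2H3D was thus above DMSO in each 5 µM library and spread over the DMSO range at 10 µM, and neither change, 1.24 ± 0.71 (adjusted p = 0.33) and 0.12 ± 0.71 (adjusted p = 0.915), passed the test.

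The H4 genes gave 3 calls up of 8 tested symbols at each dose, where 4.4% of all tested genes were up at 5 µM and 16.4% at 10 µM. HIST2H4A (chr1:149832657-149833052, plus strand) and HIST2H4B (chr1:149844488-149861240, minus strand) hold identical counts, so their calls rest on the same values. HIST2H4A had 3.72, 3.70 and 3.74 CPM with DMSO, 6.97, 7.20 and 7.14 with 5 µM and 12.9, 10.1 and 11.4 with 10 µM TP-472. The 3 groups did not overlap, with little spread in DMSO and at 5 µM, and the log2 fold change was 0.93 ± 0.13 (adjusted p = 0.00151) and 1.62 ± 0.13 (adjusted p = 1.15e-05). For HIST1H4H the values were 0.423, 0.165 and 0.189 CPM with the vehicle, 1.27, 0.794 and 0.842 with 5 µM and 1.63, 3.56 and 2.16 with 10 µM TP-472. HIST1H4H (chr6:26285126-26285534, minus strand) had a lower level and no overlap, at 1.88 ± 0.48 (adjusted p = 0.0345) and 3.22 ± 0.48 (adjusted p = 0.000763). HIST1H4H does not pass the filter on DMSO counts alone. Its 5 µM call was lost without DMSO replicate 2 or 3 or any 5 µM library, at adjusted p up to 0.142. The H4 share of the member counts was 9.75% to 9.84% for DMSO, 6.80% to 7.21% for 5 µM and 6.20% to 7.45% for 10 µM.

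**Figure D3:**
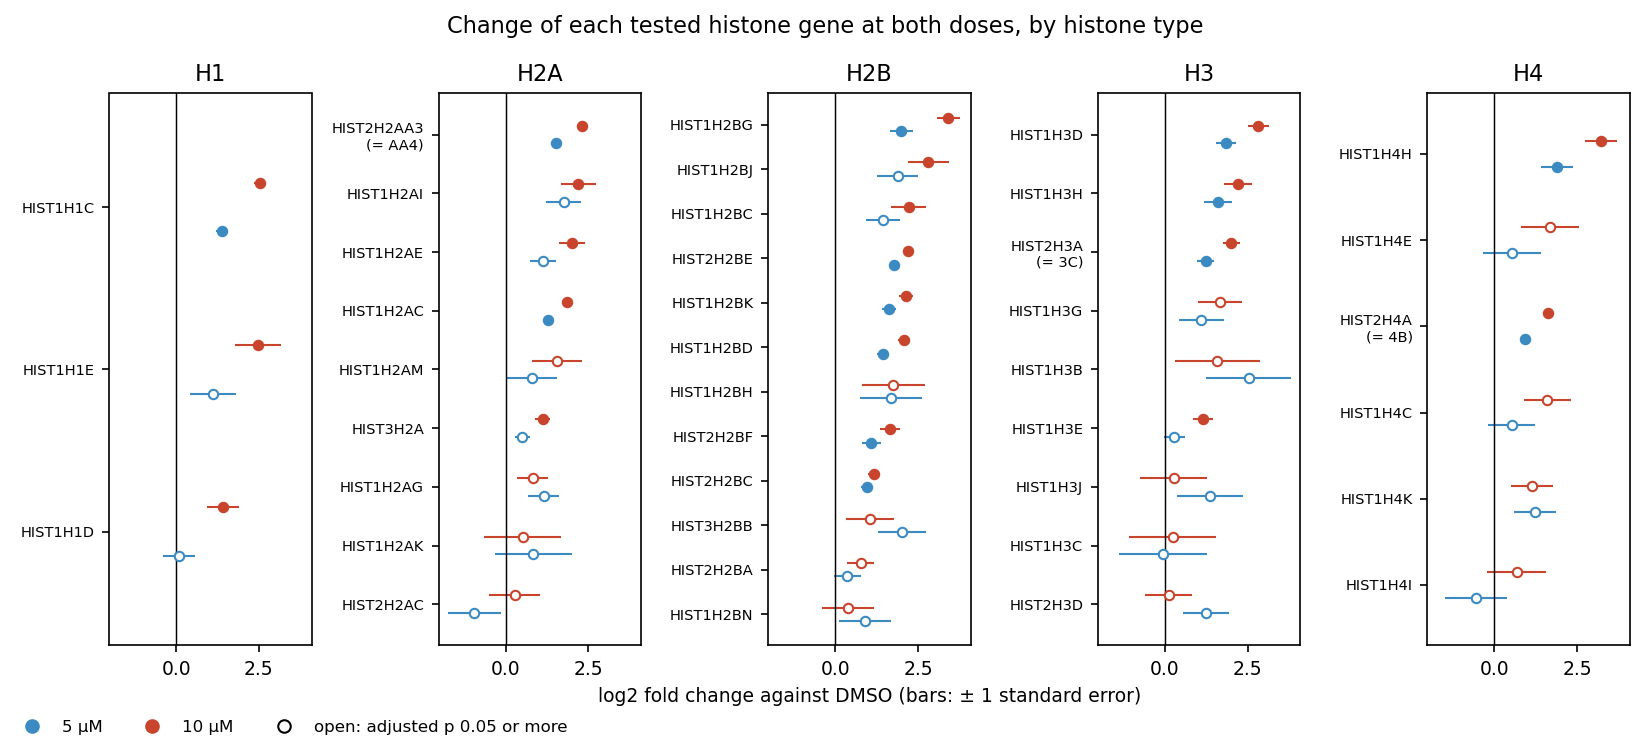
Log2 fold change against DMSO at 5 µM and 10 µM with bars of 1 standard error, for the tested histone genes by type, with identical pairs drawn once and HIST1H4J left out because it is listed at 0 in all 5 µM libraries. Filled points have an adjusted p under 0.05, and each filled point lies above 0.

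HIST1H4K and HIST1H4J show how shared sequence can set a value. All 50-base words of the HIST1H4K transcript also occur in HIST1H4J, and 81.2% of those of HIST1H4J are shared. HIST1H4J was listed at 0 in 6 of the 9 libraries, including all of those at 5 µM. The expected counts of both symbols gave sums of 61, 59 and 58 in the DMSO libraries. These sums were 75, 74 and 94 with 5 µM TP-472, and 89, 116 and 94 with 10 µM. The sum was therefore steady within DMSO, while its split between the symbols ran from all HIST1H4K to mostly HIST1H4J. Kept apart, HIST1H4K moved by 1.23 ± 0.64 (adjusted p = 0.28) and 1.14 ± 0.64 (adjusted p = 0.201). With both summed before the fit, an alternative chosen after their values were seen, the log2 fold change was 0.39 (adjusted p = 0.382) at 5 µM and 0.65 (adjusted p = 0.0649) at 10 µM. No fold is given for HIST1H4J.

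**Figure D4:**
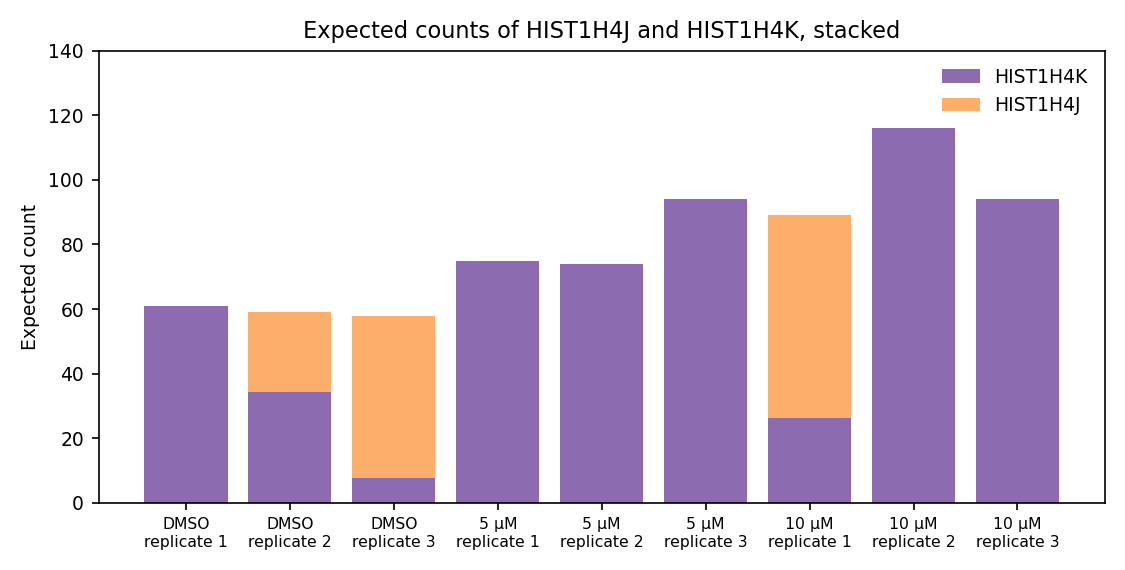
Expected counts of HIST1H4K and HIST1H4J, stacked, in each of the 9 libraries, with 3 replicates of DMSO, 5 µM and 10 µM. The stacked height stays at 58 to 61 in DMSO while the division between the symbols changes from library to library.

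The remaining 29 symbols did not pass the filter. Among them, 7 were at 0 in all 9 libraries, namely HIST1H2AA, HIST1H2AB, HIST1H2APS1, HIST1H2BA, HIST1H3I, HIST1H4G and HIST1H4L. The highest expected count of the 29 in any library was 23, for HIST1H2BF. All but HIST2H2AB and HIST3H3 were HIST1 genes. Changes of these genes were not detectable at this depth.

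By cluster, 8 of 29 tested HIST1 symbols were up at 5 µM and 15 at 10 µM, 9 of 12 HIST2 symbols at each dose, and 0 and 1 of 2 HIST3 symbols, where 4.4% and 16.4% of all tested genes were up. All 3 pairs with identical values lie in HIST2, which gave 6 of 9 at each dose with each pair counted once. The HIST1 sum had means of 55.1 CPM in DMSO, 148 at 5 µM and 251 at 10 µM, and the HIST2 sum 40.4, 104 and 164 CPM. The HIST3 sum was 5.35, 8.02 and 11.6 CPM, and its share of the member counts went from 4.95% to 5.84% in DMSO to 2.76% to 3.30% at 5 µM and 2.25% to 2.99% at 10 µM. HIST1 spans chr6:25726063-27893891, and 12 of the HIST2 symbols lie in chr1:149782689-149887965 with HIST2H2BA elsewhere on the chromosome. HIST3 lies in chr1:228424845-228458558.

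Many H2A and H2B genes face away from each other across a shared promoter. With starts at most 1000 bases apart, 13 such pairs were found. At 10 µM both partners were called up in 3 of them, only 1 partner in 5 and neither in 5. Of all tested genes, 16.4% were up at 10 µM. Among the 5 with neither, only HIST1H2AK and HIST1H2BN were both tested. HIST1H2AM was tested and its partner HIST1H2BO was not, and the remaining pairs had no tested partner. In HIST1H2BG and HIST1H2AE, whose starts are 233 bases apart, both were called, at log2 fold changes of 3.42 and 2.01. HIST1H2BC and HIST1H2AC, 246 bases apart, gave 2.21 and 1.84, and HIST2H2BC and HIST2H2AA4, 288 bases apart, gave 1.16 and 2.30. HIST2H2AA4 holds the same counts as its copy HIST2H2AA3, so it was not measured on its own. HIST2H2BC is a pseudogene that lies inside the span of HIST2H4B on the same strand. HIST2H2BE and HIST2H2AC share 236 bases, and their values at 10 µM were 2.21 and 0.28, with the latter not called. HIST1H2BJ was called next to HIST1H2AG, which was not, at 2.81 and 0.81 across 248 bases. HIST3H2A and HIST3H2BB, 230 bases apart, stood at 1.12, called, and 1.05, not called. HIST1H2BK and HIST1H2AI were called beside HIST1H2AH and HIST1H2BL, which did not pass the filter. The difference between partners was not tested.

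The calls at 10 µM also included all protein-coding members with a long annotated span. RefSeq gives 8 protein-coding members a span over 1000 bases, namely HIST1H2BC, HIST1H2BD, HIST1H2BK, HIST1H3D, HIST1H3E, HIST2H2BE, HIST2H2BF and HIST2H4B, and 8 of 8 were up at 10 µM and 6 at 5 µM. Of the 61 protein-coding members with shorter spans, 33 passed the filter and 16 were up at 10 µM. The share of all tested genes called up was 16.4% at 10 µM and 4.4% at 5 µM. Among symbols that pass on DMSO counts alone, these were 7 of 7 against 12 of 17 up at 10 µM, with median log2 fold changes of 2.08 and 1.84. Of all genes that pass so, 16.7% were up. The difference between long and short spans was not tested. The span limit was chosen after the values were seen, and HIST2H4B shares its counts with HIST2H4A, whose span is 396 bases. Long spans overlap other members, with HIST1H2AD inside HIST1H3D and HIST2H2BC inside HIST2H4B on the same strand, and HIST1H4I inside HIST1H2BK and HIST2H2AA4 and HIST2H3A inside HIST2H4B on the opposite strand. The sources do not state if strand entered the counting, so the values of these overlapping genes are uncertain.

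The stem-loop that ends the usual histone transcript, shown because it separates the short from the longer transcript form, was found in the GENCODE 29 transcripts of 32 of the 72 symbols. A symbol without a match may have its stem-loop past the end of the annotated transcript. On the minus strand, HIST1H1C ends at 26055787 in GENCODE 29 and further on, at 26055740, in RefSeq. The count therefore describes the annotation and does not show which genes lack a stem-loop. Capitals mark the paired stem.
HIST1H2AC: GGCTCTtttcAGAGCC
HIST1H2BG: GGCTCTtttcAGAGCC
HIST2H2BE: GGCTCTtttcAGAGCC
HIST2H2AA3: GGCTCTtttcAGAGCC
HIST1H2BD: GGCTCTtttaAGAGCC
HIST1H4H: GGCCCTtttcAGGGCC
In 23 of the 32, the longest annotated transcript that holds the stem-loop ran more than 100 bases past the stem-loop. It ran 1128 bases past for HIST1H2AC, 1059 for HIST1H2BG, 1729 for HIST2H2BE and 1655 for HIST1H4H, and 35 for HIST2H2AA3. It ran 39 bases past for HIST1H2BD, in which 1 of 2 annotated transcripts holds the stem-loop. Gene-level counts do not tell these forms apart, so no form was measured on its own.

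Between the doses, 7 of the 43 tested symbols were higher at 10 µM than at 5 µM and 0 lower, where 2.87% of all tested genes were called up and 5.53% down. With the limit of 1.5-fold as well, 6 were higher and 0 lower, against 1.42% up and 2.59% down. The 7 were HIST1H1C, HIST2H2AA3, HIST2H2AA4, HIST1H2AC, HIST1H2BG, HIST2H4A and HIST2H4B, or 5 of 40 with identical pairs counted once, and all 7 were already up at 5 µM (0.902% of all genes were up in both of these comparisons). HIST1H1C gave a log2 fold change between doses of 1.15 ± 0.17 (adjusted p = 0.00278), and HIST2H4A gave 0.69 ± 0.12 (adjusted p = 0.00887). HIST2H2AA3 gave 0.78 ± 0.15 (adjusted p = 0.0119), HIST1H2AC 0.56 ± 0.12 (adjusted p = 0.019) and HIST1H2BG 1.43 ± 0.32 (adjusted p = 0.0244). All 10 µM libraries lay above all 5 µM libraries in 18 of the 43 symbols and below in 1, against 12.1% and 16.2% of all genes. HIST1H2BK, at 0.53 ± 0.20 (adjusted p = 0.14), and HIST2H2BE, at 0.43 ± 0.12 (adjusted p = 0.058), did not pass. Of the 8 symbols called at 10 µM and not at 5 µM, 0 passed this test, with adjusted p from 0.118 (HIST1H3E) to 0.628 (HIST1H2AI), so a difference between their dose responses is not shown. With only the 5 µM and 10 µM libraries in the fit, 1 of the 7 calls remained, that of HIST1H1C, while DESeq2 called 13. The number of calls rested on single libraries. It was 16 without the 10 µM replicate 1 library and 11 without replicate 3, and 3, 4 and 3 without 5 µM replicates 1, 2 and 3. All 7 calls remained without 10 µM replicate 1 and without 10 µM replicate 3. The share of all genes called by these altered fits is not given, so their counts have no background.

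The listed histone genes outside the clusters, which include genes of histone variants, gave no rise. Of 11 tested, 0 were called at 5 µM, and at 10 µM 0 rose and 3 fell, namely the centromeric H3 variant CENPA at -0.80 ± 0.19 (adjusted p = 0.00834), H2AFV at -0.37 ± 0.10 (adjusted p = 0.0147) and H2AFY2 at -0.39 ± 0.13 (adjusted p = 0.0413). For comparison, 4.4% of all tested genes were called up and 5.81% down at 5 µM, and 16.4% up and 18% down at 10 µM. The call of H2AFV was lost without DMSO replicate 1, at an adjusted p of 0.0700, and that of H2AFY2 without any DMSO library, 5 µM replicates 2 or 3 or 10 µM replicates 2 or 3, at adjusted p up to 0.173. The median log2 fold change of the 11 was -0.15 at 5 µM and -0.11 at 10 µM. The linker variant H1F0 was at 304, 285 and 296 CPM in the 3 groups and H2AFX, the source of phosphorylated H2A.X, at 137, 135 and 118 CPM, with no call. H2AFX was called down at 10 µM without the library that stands apart, at a log2 fold change of -0.44 (adjusted p = 5.85e-06), against -0.21 ± 0.14 (adjusted p = 0.286) with it. H3F3A was listed at 0 in all 9 libraries.

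Genes for histone mRNA synthesis and 3′ processing gave 1 rise and 0 falls at 5 µM and 2 rises and 3 falls at 10 µM among 14, counts near the background of 4.4% up and 5.81% down at 5 µM and of 16.4% up and 18% down at 10 µM. The cleavage factor CSTF2 was called at both doses, at 0.33 ± 0.08 (adjusted p = 0.0259) and 0.31 ± 0.08 (adjusted p = 0.0119), and LSM10, a subunit of the U7 particle that cuts histone transcripts, at 10 µM with 0.65 ± 0.14 (adjusted p = 0.00483). CSTF2 lost its call at 5 µM without any DMSO library or 5 µM replicates 1 or 2, at adjusted p up to 0.135, and at 10 µM without DMSO replicate 1 or 2, up to 0.0658. POU2F1, which binds the octamer, fell by 0.50 ± 0.11 (adjusted p = 0.00598) at 10 µM, LSM11, another U7 subunit, by 0.39 ± 0.13 (adjusted p = 0.0386), and SLBP by 0.30 ± 0.09 (adjusted p = 0.0245). SLBP lost its call without any DMSO library, 10 µM replicate 2 or 10 µM replicate 3, at adjusted p up to 0.0869. NPAT, the coactivator of histone gene transcription in S phase, stood at 21.96, 20.2 and 16.4 CPM and was not called, at -0.42 ± 0.19 (adjusted p = 0.124). Without 10 µM replicate 3 its value was -0.68 with an adjusted p of 0.00794, which is past the threshold.

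Of 15 histone chaperone genes, which hand histones to DNA, 6 fell at 5 µM and 10 at 10 µM, and 0 rose, where the share of all tested genes that fell was 5.81% and 18%. HJURP, the chaperone of CENPA, fell by 0.96 ± 0.09 (adjusted p = 3.4e-05) at 10 µM, and the chromatin assembly factor subunits CHAF1B and CHAF1A fell by 1.09 ± 0.11 (adjusted p = 4.73e-05) and 0.68 ± 0.07 (adjusted p = 6.19e-05). Of 20 genes of S phase, 12 fell at 5 µM and 16 at 10 µM against the same 5.81% and 18%. SLBP is in this list and in the processing list, so its fall at 10 µM counts in both. PCNA, the replication clamp, rose at 10 µM by 0.43 ± 0.10 (adjusted p = 0.00618). The replicative helicase subunits MCM2 and MCM6 fell by 1.06 ± 0.07 (adjusted p = 3.42e-06) and 1.11 ± 0.08 (adjusted p = 7.87e-06), and MCM5, also called, went from a mean of 73.3 CPM in DMSO to 31.9 CPM at 10 µM. The clustered histone genes called at either dose were thus higher in the same libraries in which most of the listed S-phase genes were lower. The part of a shift in cell cycle phase in the histone levels was not tested.

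**Figure D5:**
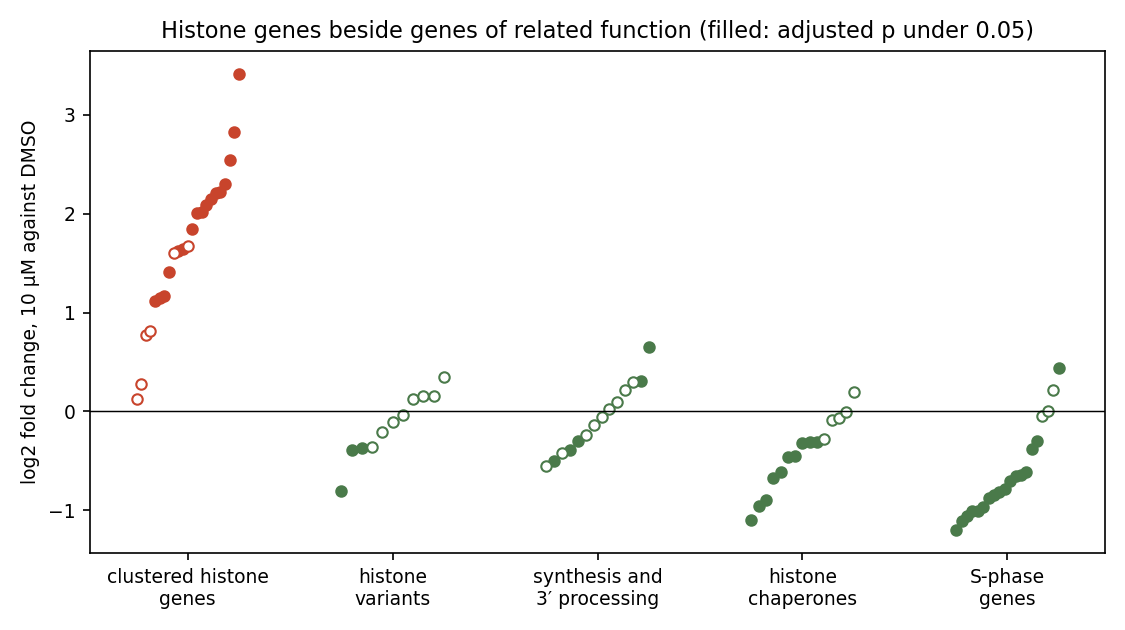
Log2 fold change at 10 µM against DMSO for the clustered histone genes that pass the filter on DMSO counts alone, with identical pairs drawn once, beside the tested genes of the 4 related lists, 1 point per gene. Histone genes lie between 0.12 (HIST2H3D) and 3.42 (HIST1H2BG), and most chaperone and S-phase genes lie below 0.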

How the data were processed

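RNA of A375 cells (3 libraries each of DMSO, 5 µM and 10 µM TP-472, 24 h) was measured by RNA-seq. The authors deposited expected counts per gene symbol, estimated by RSEM and not scaled. Per the labels, the submitters' processing notes name Bowtie2 2.1.0, RSEM 1.2.15 and the build hg38, with no annotation named. Expected counts were rounded and tested with edgeR 4.0.16 in R 4.3.3 (TMM, filterByExpr with a minimum count of 10, quasi-likelihood F test in a fit of 3 group means, Benjamini-Hochberg over 16417 genes). The SE was computed as log2 fold change over the root of F. The labels give 3 biological replicates per group and do not say whether these were separate cultures, so p-values measure the spread between these libraries. The members and all lists were chosen with earlier results of these data known. Named were the 3 members of most counts per type, the 5 largest rises, all tested HIST2 and HIST3 members, partners of divergent pairs, and of each other list the 3 smallest p at 10 µM plus SLBP, NPAT, H1F0 and H2AFX. LSM11, PCNA, S100A1, HIST1H3H, HIST1H3E, HIST1H4J and the 3 H1 genes that failed the filter were named after their values were seen. Python 3.11.15, pandas 2.3.3 and matplotlib 3.10.9 made tables and figures, DESeq2 1.42.0 and limma 3.58.1 served as alternatives, and the fit was tested on simulated data.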

Additional observations from a re-analysis of the deposited data

How the results depend on the processing

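The counts of members up at 5 µM, at 10 µM and at 10 µM against 5 µM, 17, 25 and 7 in the report, were recomputed with other size factors, filters, tests, fold limits and samples, and no named log2 fold change that had been called changed sign. Counts moved by over 1.5 times with limma-voom at 5 µM (11 up), with DESeq2 between doses (13 up) and with only the groups compared between doses (1 up), and the cause was not tested. Leaving out 1 library gave 11 to 21 up and 0 to 1 down at 5 µM, 22 to 26 up and 0 to 1 down at 10 µM and 3 to 16 up between doses. With the replicate block the counts were 14, 24 and 8. These counts stand without the share of all genes called by the same fit. Libraries of the same number had correlations of their deviations of -0.07 to 0.10, and libraries of different numbers of -0.08 to 0.08. Libraries of the same number thus did not stand out. With 3 libraries per group this cannot show whether replicates were handled together. With a 1.5-fold limit added, 17, 25 and 6 were up, with identical copies summed 14, 22 and 5, and with HIST1H4J and HIST1H4K summed, chosen after seeing the data, 17, 25 and 7. Of 351 recomputed sums of CPM, 23 moved beyond the spread of their group, most of them with the ribosomal RNA set left out. In that setting the sum over all members was 115 CPM in DMSO and 296 CPM at 5 µM. Other size factors left the median log2 fold change of all genes within 0.052 of 0. Depth limits the 29 symbols that did not pass the filter, and expected counts of near-identical copies rest on how RSEM divides shared reads.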
